A study of Mus musculus with 18 samples.

Results

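The genes described here encode acute-phase proteins and other parts of innate defence: Lcn2, Saa3, Hp, C3, Lbp, Cd14, Nos2, Il6 and Il33. They were taken by gene symbol from an expression table of mouse pancreatic cancer cell lines, and 9 of the 10 genes named for the group were found among the 16383 genes listed. The tenth, Cfb, was not analysed here. Lcn2, Nos2 and Lbp were chosen by their CPM values, for patterns between metastatic sites or libraries in these data, so their values are given as a description without a test. The other 6 were tested.

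The study measured RNA in 18 libraries from 6 lines, each grown from a spontaneous metastasis of pancreatic ductal adenocarcinoma. Lines 42-3 and 6-2 came from lung; lines 42-2, G45-2, 6-3 and 13-2 came from liver. Cells received lentivirus carrying Gstt1 shRNA 1 (6 libraries, 2 from lung lines and 4 from liver lines), Gstt1 shRNA 2 (4 libraries, 1 from lung and 3 from liver) or an NT control shRNA (8 libraries, 3 from lung and 5 from liver). All were selected in puromycin for 48 h and collected after one passage. Gstt1 encodes a glutathione S-transferase of the theta class. Every line carried p53F/+ and KrasL/+ with the p48 driver, and all but 13-2 also carried SIRT6F/F, according to the labels. The p48 driver directs Cre to pancreatic epithelium. The labels give knockdown and control libraries of a line the same genotype. In the comparisons between sites, 13-2 stands on the liver side only, so genotype and site cannot be fully told apart there. Each knockdown library belongs to a culture set with its own NT library. There are 8 such sets, because 42-3 and 42-2 each appear in a first and a second set, and only G45-2 and 6-3 received both hairpins.

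The acute-phase response is the change in secreted plasma proteins that follows infection or injury. It is best known in liver, but epithelial and tumour cells make many of the same proteins when interleukins or bacterial products activate NF-kB, C/EBP and STAT transcription factors. LBP carries bacterial lipopolysaccharide to CD14, which passes it to Toll-like receptor signalling. Lipocalin 2 (Lcn2), serum amyloid A3 (Saa3), haptoglobin (Hp), complement C3 and the inducible nitric oxide synthase (Nos2) are effectors made downstream of such signals. Interleukin 6 (Il6) drives the hepatic response, and interleukin 33 (Il33) is a nuclear alarmin released by damaged barrier cells.

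Levels are given in CPM, the read count of a gene scaled to the total reads of its library. The libraries held 8411436 to 25552912 reads, so that 3 reads, the limit that a count of 0 allows, correspond to 0.117 to 0.357 CPM. Gstt1 was lower than in the matched NT library in 10 of 10 knockdown libraries, at 0.613% to 75.4% of it. The NT level was itself low in 42-2, at 2.67 CPM in the first set and 0.616 CPM in the second. Knockdown was shallow for shRNA 1 in 6-3 (75.4% of control) and in G45-2 (54.5%). In 5 of the 8 sets, knockdown and NT libraries differed at least 10-fold, with at least 10 CPM in one of them, in 2 or more of 7 transcripts used to compare library identity. These identity transcripts are Ddx3y, Eif2s3y, Kdm5d and Uty of the Y chromosome, Xist, Cdkn2a and Cdkn2b. The sets concerned are all 3 lung sets, the first 42-2 set and 13-2. In 6-2, for example, Ddx3y stood at 1.08 CPM in the knockdown library and 216 CPM in the NT library. At a lower limit of 1 CPM the second 42-2 set joins them, which leaves G45-2, where Kdm5d alone differed, and 6-3. Markers of tumour epithelium summed to 377 to 7746 CPM in knockdown libraries and 540 to 15185 CPM in NT libraries. They were lowest in the second 42-2 set, where fibroblast markers summed to 6452 CPM in the knockdown library and 2917 CPM in the NT library. Most of these 2 sums was Col3a1, at 6083 and 2681 CPM.

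Promoter sequences are shown for 4 of the 5 genes of the group with an entry in the RefSeq promoter table used here, because C3, Lcn2 and Saa3 were lower together in the liver sets and Il6 is shown beside them as the cytokine of the group. Each run holds the 250 bases before the annotated start in GRCm38.p6, written 5′ to 3′ on the gene's own strand. The C3 window is chr17:57228137-57228386 and that of Lcn2 is chr2:32387740-32387989, both on the minus strand. The Saa3 window is chr7:46715677-46715926 on the minus strand, and the Il6 window is chr5:30012864-30013113 on the plus strand. Capitals mark matches to the C/EBP motif TTGCNNAA and to the NF-kB consensus, searched on both strands.
C3: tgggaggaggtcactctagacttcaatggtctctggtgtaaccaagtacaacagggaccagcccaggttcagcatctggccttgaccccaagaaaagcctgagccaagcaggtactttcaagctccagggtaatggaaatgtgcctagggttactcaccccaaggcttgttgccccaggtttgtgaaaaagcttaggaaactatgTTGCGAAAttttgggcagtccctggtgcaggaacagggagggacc
Lcn2: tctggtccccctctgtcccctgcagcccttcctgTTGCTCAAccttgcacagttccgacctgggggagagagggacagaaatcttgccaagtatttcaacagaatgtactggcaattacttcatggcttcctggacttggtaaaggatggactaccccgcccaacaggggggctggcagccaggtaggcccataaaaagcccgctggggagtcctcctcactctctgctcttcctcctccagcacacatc
Saa3: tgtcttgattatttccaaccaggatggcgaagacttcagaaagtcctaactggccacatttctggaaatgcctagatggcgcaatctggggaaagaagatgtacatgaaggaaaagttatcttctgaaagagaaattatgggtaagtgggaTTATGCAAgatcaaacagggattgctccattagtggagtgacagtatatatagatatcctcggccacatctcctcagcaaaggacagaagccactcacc
Il6: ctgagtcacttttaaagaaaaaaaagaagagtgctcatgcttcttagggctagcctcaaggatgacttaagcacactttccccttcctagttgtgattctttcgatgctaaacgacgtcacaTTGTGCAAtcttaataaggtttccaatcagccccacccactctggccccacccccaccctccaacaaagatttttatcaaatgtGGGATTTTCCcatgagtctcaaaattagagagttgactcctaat
A C/EBP match lies in all 4 windows, starting 45 bases before the start in C3, 216 in Lcn2, 99 in Saa3 and 128 in Il6. The fifth gene, Il33, has 2 windows in the table, of which 1 holds a C/EBP match and 1 does not, so that 5 of the 6 windows of the group match. The Il6 window alone among these 4 holds an NF-kB match, 44 bases before the start. Among 32851 listed mouse promoters of the same length, 9.56% hold this C/EBP motif and 3.90% the NF-kB consensus. An AP-1 match, TGANTCA, was found in the Il6 window only, and a STAT match, TTCNNNGAA, in none of the 4; these motifs occur in 6.75% and 7.02% of the listed promoters. The matches describe letters in these windows and not occupied sites.

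**Figure D1:**
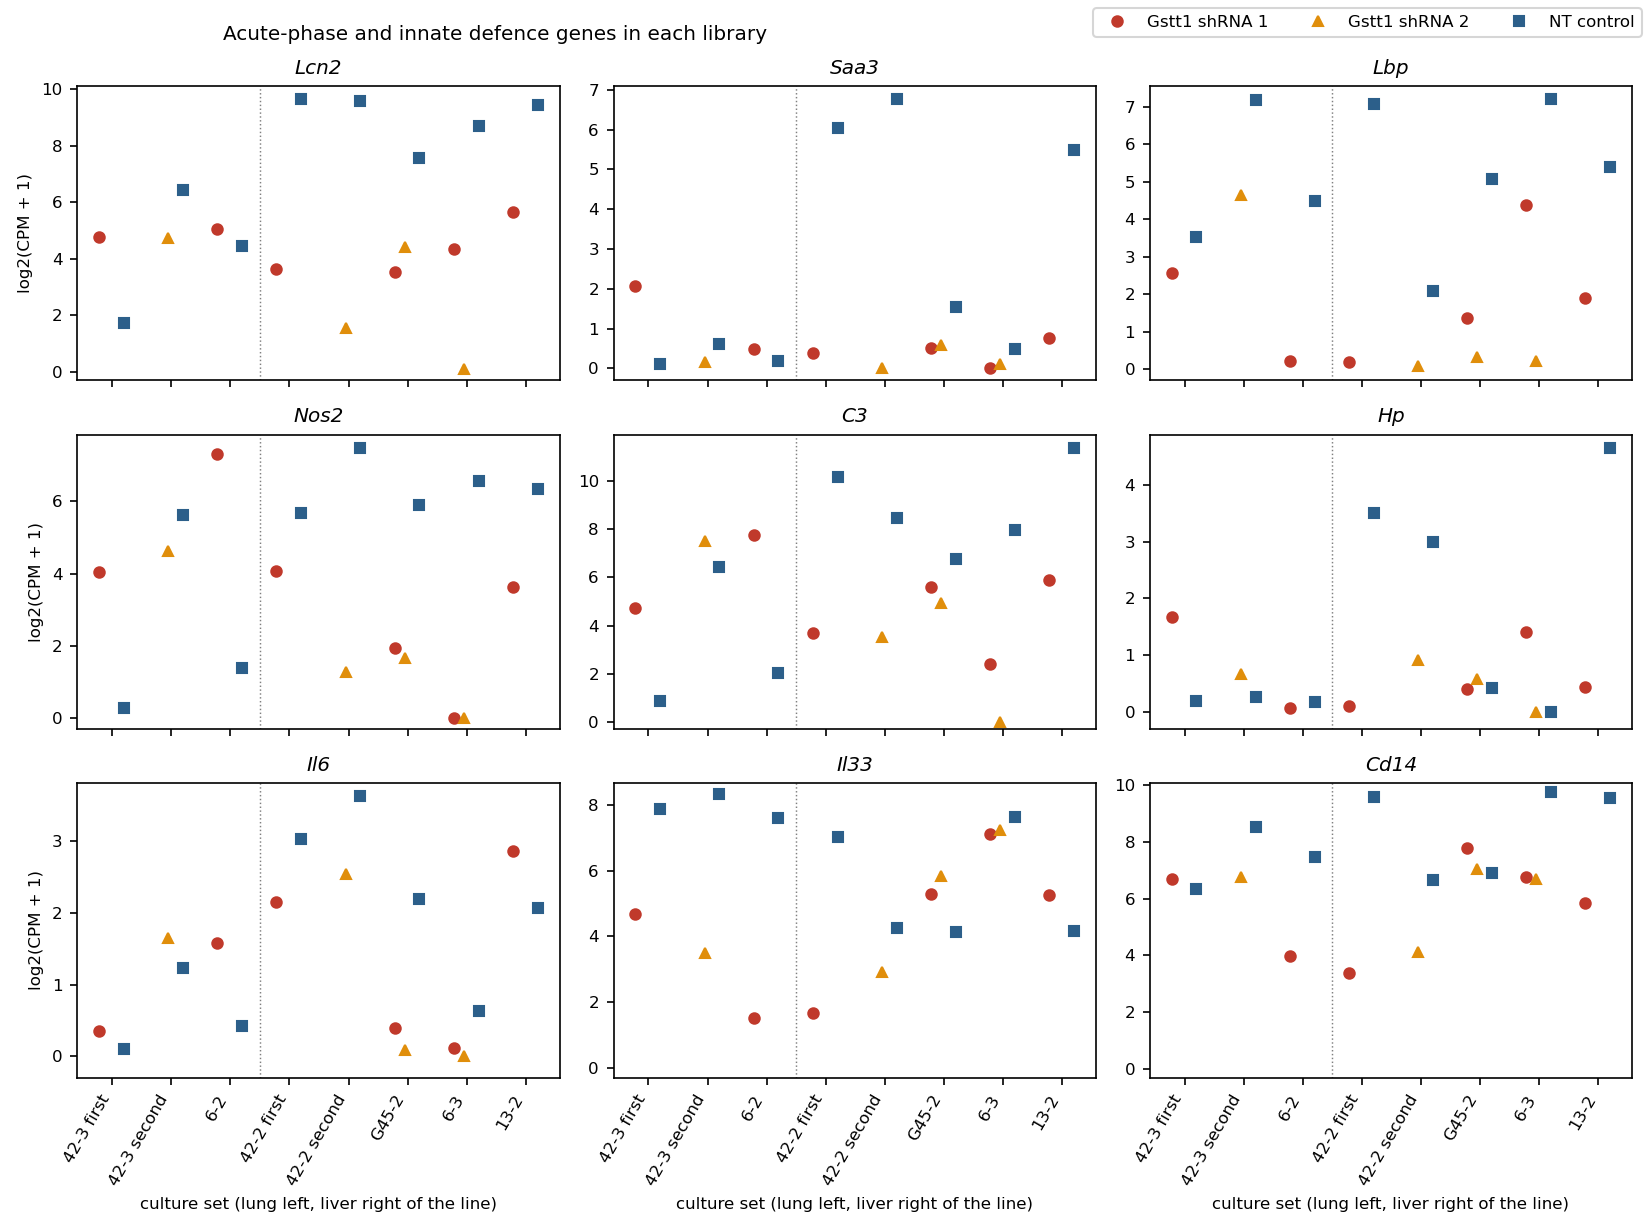
Level of each gene as log2(CPM + 1) in each of the 18 libraries, by culture set, with 3 lung sets left and 5 liver sets right of the dotted line. Circles are Gstt1 shRNA 1, triangles Gstt1 shRNA 2 and squares the NT control; in the liver sets the knockdown points of Lcn2, Nos2 and C3 all lie below all NT points, while Il33 is below its control in each lung set.

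Over all sets, none of the 6 tested genes passed the test for knockdown of Gstt1, and their estimates lay below 0. The fit was limma on log2(CPM + 1) with the culture set as a block and the mean of both hairpins as the contrast. At a Benjamini-Hochberg adjusted p under 0.05 it called 5 of 12931 genes, or 0.0387%, with 4 (0.0309%) lower. Of the 6 tested members, 3 had an unadjusted p under 0.05 (Cd14, Il33 and Saa3), beside 2216 of all 12931 genes, and edgeR on the recovered reads also called none of the 6. The median log2 difference of the 6 genes not chosen for a pattern was −2.04, beside −0.03 for all genes tested, of which 53.0% were lower. In G45-2 and 6-3 alone, the sets whose identity transcripts differ least, the estimates were −4.13 for C3, −1.25 for Cd14 and 0.48 for Il33, with −5.02 for Lcn2, −4.57 for Lbp and −5.33 for Nos2. Saa3, Hp and Il6 did not reach the filter on low values there. Knockdown and NT libraries of 6-3 carry different library codes. The shRNA 1 libraries of these sets kept Gstt1 at 75.4% of control in 6-3 and 54.5% in G45-2.

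C3 (ENSMUSG00000024164), the central component of the complement cascade, was higher after knockdown in the lung lines and lower in the liver lines. It had 25.6, 183 and 219 CPM in the lung knockdown libraries (42-3 first, 42-3 second and 6-2), against 0.810, 84.8 and 3.09 CPM in their NT libraries. In the liver knockdown libraries it ranged from 0 to 59.2 CPM with a median of 11.9, against 1167, 355, 109, 249 and 2638 CPM in the NT libraries of 42-2 first, 42-2 second, G45-2, 6-3 and 13-2. Each lung knockdown library was above its own control, although the values of the 2 lung groups overlap; in liver all 7 knockdown libraries lay below all 5 controls. With shRNA 2 in 6-3, C3 had no read, which is at least 996-fold below its control when set at 3 reads.

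Expressed as a difference of log2(CPM + 1) from the NT library of the same set, C3 averaged 3.58 ± 2.34 in the lung sets (SD, n = 3) and −5.04 ± 2.11 in the liver sets (SD, n = 5). The lung minus liver difference of the knockdown effect was 8.51 on the log2 scale (SE 1.35, limma adjusted p = 0.0234). The fit took single libraries with the culture set as a block, not the line, as the unit. The 3 lung sets come from 2 lines and the 5 liver sets from 4, so this p-value does not measure the spread between lines. This contrast called 65 of 12931 genes, or 0.503%, with 33 (0.255%) higher in lung. C3 was the 1 member of the 6 tested that passed it. A gene higher in 3 of 3 lung sets and lower in 5 of 5 liver sets occurs in 0.943% of tested genes, and C3 was the 1 of 9 genes of the group with that pattern.

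The direction of C3 held within both library codes that contain lung and liver sets. Under code CFa8 the log2 difference was 3.88 and 5.75 in the lung sets 42-3 first and 6-2, and −6.50 in the liver set 42-2 first. Under code CFa11 it was 1.10 in the second 42-3 set and −1.50 in G45-2. In 6-3 and 13-2 the knockdown and NT libraries carry different codes, and without these sets the difference was 7.62 with a limma adjusted p of 0.128. The adjusted p also missed 0.05 without the first 42-3 set (0.0766), without 6-2 (0.0561), without 13-2 (0.0549), without the replicate block (0.0805) and with edgeR (0.107).

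All 3 lung sets are among those whose identity transcripts differ, so the lung side of this comparison cannot be told apart from a difference of line identity between libraries. In the liver sets least touched by such differences, G45-2 and 6-3, C3 was lower after knockdown in each, with log2 differences of −1.50 and −6.76. In 6-3 the knockdown libraries carry code CFa12 and the NT library CFa11, so knockdown and code cannot be told apart there. Under shRNA 1 in 6-3, Gstt1 was at 75.4% of control, while C3 had 4.29 CPM against 249 CPM in the NT library. Summed markers of tumour epithelium (8 of 8 listed, such as Krt8 and Epcam) also moved with the lung result. They stood, in the same order of sets, at 1489, 4776 and 1910 CPM in the lung knockdown libraries and at 12343, 13042 and 15185 CPM in the lung NT libraries. Fibroblast markers (7 of 8 listed) summed to 3877, 357 and 58.7 CPM in the lung knockdown libraries, against 58.4, 13.9 and 49.6 CPM in the lung NT libraries. These markers did not move together. In 42-3 first the sum was mostly Col3a1 (3625 CPM), while Col1a1 was lower (32.3 against 55.7 CPM). In 42-3 second Col1a1 (240 against 11.9 CPM) and Col3a1 (75.6 against 0.472 CPM) were higher. In 6-2 both were lower, and Pdgfra was higher (55.0 against 1.07 CPM). The part of the epithelial and fibroblast markers in the C3 result was not tested. In bulk RNA, fewer cells of a type and less RNA per cell cannot be told apart.

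**Figure D2:**
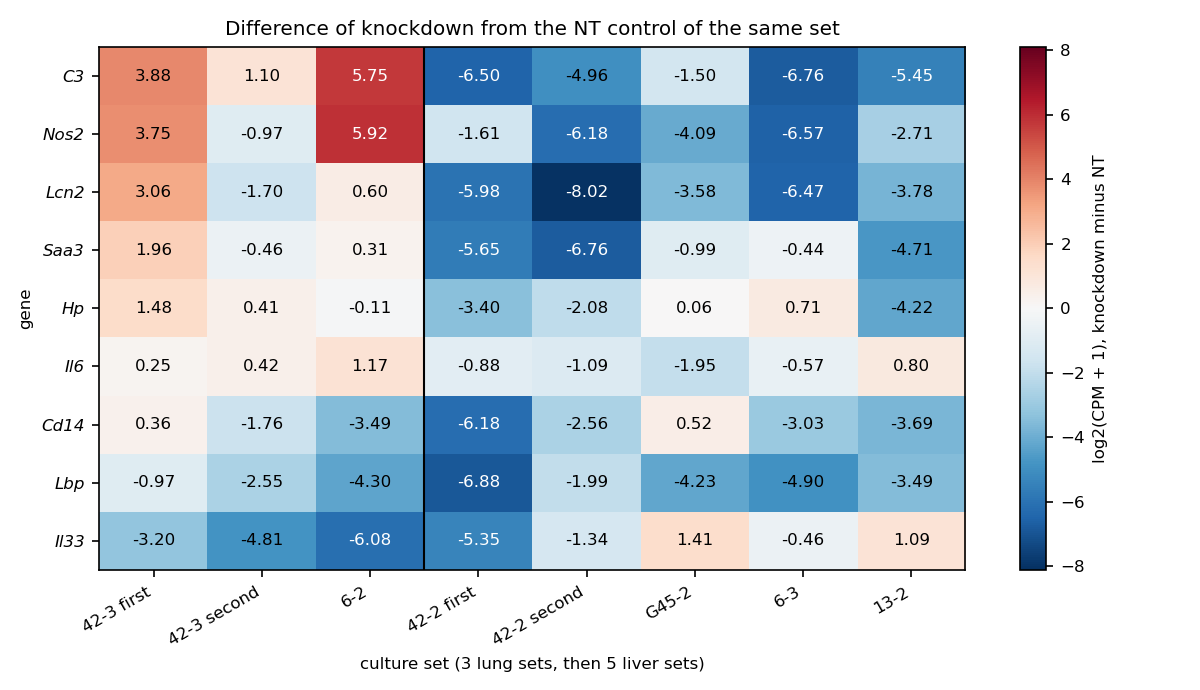
Difference of log2(CPM + 1), knockdown minus the NT library of the same culture set, for the 9 genes in 3 lung sets and 5 liver sets; red is higher and blue lower after knockdown, and the mean is shown where a set had both hairpins. C3 runs between 1.10 and 5.75 in lung and between −6.76 and −1.50 in liver, while Lbp is below 0 in all 8 sets.

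Lcn2 (ENSMUSG00000026822), a siderophore-binding protein that withholds iron from bacteria, was low after knockdown in the liver lines and mixed in the lung lines. It had 26.3, 25.8 and 32.1 CPM in the lung knockdown libraries against 2.28, 86.1 and 20.9 CPM in their NT libraries, in the order used for C3. The liver knockdown libraries ranged from 0.0832 to 48.8 CPM with a median of 11.6, against 793, 760.5, 188, 413 and 684 CPM in the liver NT libraries. The lung groups overlap and the liver groups do not. The log2 difference averaged 0.65 ± 2.38 in lung sets (SD, n = 3) and −5.57 ± 1.88 in liver sets (SD, n = 5). In 6-3 the hairpins differed, with 19.2 CPM under shRNA 1, where Gstt1 was at 75.4% of control, and 0.0832 CPM under shRNA 2, where it was at 0.982%. In G45-2 the order was the opposite, with 10.7 CPM under shRNA 1 (Gstt1 at 54.5%) and 20.4 CPM under shRNA 2 (Gstt1 at 11.8%). Identity transcripts differ in all 3 lung sets, in 42-2 first and in 13-2, which applies to the lung and liver values of every gene here.

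Nos2 (ENSMUSG00000020826), which makes nitric oxide from arginine, had 15.4, 23.9 and 157 CPM in the lung knockdown libraries, against 0.221, 47.8 and 1.61 CPM in the lung NT libraries. It was higher in the first 42-3 set and in 6-2, and lower in the second 42-3 set. The liver knockdown libraries ranged from 0 to 15.9 CPM with a median of 2.17, against 50.6, 176, 58.8, 93.9 and 80.2 CPM in the liver NT libraries. No read of Nos2 was counted in either 6-3 knockdown library, at least 394-fold (shRNA 1) and at least 376-fold (shRNA 2) below control. Gstt1 was at 75.4% of control under shRNA 1 there and at 0.982% under shRNA 2. Both 6-3 knockdown libraries also carry a different library code from their NT library. The log2 difference of Nos2 averaged 2.90 ± 3.52 in lung sets (SD, n = 3) and −4.23 ± 2.15 in liver sets (SD, n = 5).

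Together with C3, Lcn2 and Nos2 are the 3 of 9 genes whose liver knockdown libraries all lie below the liver NT libraries, a pattern of 0.626% of tested genes. They are also the 3 whose lung sets all lie above the liver sets in knockdown difference, as 5.41% of tested genes do. Lcn2 and Nos2 were chosen for such patterns, so nothing is read from these counts. Within library code CFa11 the log2 difference was −1.70 in lung and −3.58 in liver for Lcn2, and −0.97 in lung and −4.09 in liver for Nos2.

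Saa3 (ENSMUSG00000040026), an acute-phase apolipoprotein made outside the liver, was above 2 CPM in few libraries. Over the 10 knockdown libraries it ranged from 0 to 3.17 CPM with a median of 0.354, highest in 42-3 first. In the NT libraries it had 64.3, 107 and 43.8 CPM in 42-2 first, 42-2 second and 13-2, and 1.90 CPM or less in the other 5. The knockdown libraries thus overlap only with those 5 low controls. The second 42-2 knockdown library had no Saa3 read, at least 520-fold below its control of 107 CPM. Lower values in 5 of 5 liver sets were shared by Saa3, Lcn2, Lbp, Nos2 and C3, a pattern of 8.32% of tested genes. Lcn2, Lbp and Nos2 were chosen for such patterns, and among the 6 other genes Saa3 and C3 show it. For Saa3 the 6-3 set rests on 6 reads in the NT library against 0 (shRNA 1) and 1 (shRNA 2), near the limit of 3 reads. Identity transcripts differ in 42-2 first and 13-2, and at the lower limit in 42-2 second, the 3 sets with high controls. Averaged over sets, the knockdown estimate for Saa3 was −2.03 on the log2 scale (SE 0.87, limma adjusted p = 0.266), and the lung minus liver difference was 3.96 (SE 1.38, adjusted p = 0.158).

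Hp (ENSMUSG00000031722), the haemoglobin scavenger, followed Saa3 in the same 3 NT libraries at lower levels. It had 0.0746, 0.894 and 0.353 CPM in the knockdown libraries of 42-2 first, 42-2 second and 13-2, against 10.3, 7.01 and 24.2 CPM in their NT libraries. These 3 NT libraries were the high ones, as for Saa3. Elsewhere it stayed at or below 2.19 CPM in knockdown libraries and 0.346 CPM in NT libraries. The knockdown estimate was −0.79 (SE 0.61, limma adjusted p = 0.536).

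Lbp (ENSMUSG00000016024), the secreted carrier of lipopolysaccharide, was the 1 of the 9 genes lower after knockdown in 8 of 8 sets; 2.43% of tested genes share this, and Lbp was chosen for such a pattern. It had 4.93, 24.0 and 0.154 CPM in the lung knockdown libraries against 10.6, 146 and 21.7 CPM in the lung NT libraries. In the liver knockdown libraries it ranged from 0.0687 to 19.9 CPM with a median of 0.248, against 134, 3.23, 32.8, 147 and 41.2 CPM in the liver NT libraries. Every knockdown library was below its own control, but the groups overlap at both sites. The log2 difference averaged −2.61 ± 1.66 in lung sets (SD, n = 3) and −4.30 ± 1.81 in liver sets (SD, n = 5). The hairpins differed in 6-3, with 19.9 CPM under shRNA 1 and 0.166 CPM under shRNA 2, and in G45-2, with 1.60 CPM under shRNA 1 and 0.248 CPM under shRNA 2.

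Cd14 (ENSMUSG00000051439), the receptor that takes lipopolysaccharide from LBP, had the smallest adjusted p of the 6 tested genes for knockdown, and it did not pass. It had 103, 108 and 14.9 CPM in the lung knockdown libraries against 79.7, 368 and 178 CPM in the lung NT libraries. In liver the knockdown libraries ranged from 9.48 to 220.1 CPM with a median of 102, against 760, 101, 118, 858 and 742 CPM in the liver NT libraries. Cd14 was lower in 6 of 8 sets and higher in the first 42-3 set and in G45-2, and the groups overlap at both sites. The knockdown estimate was −2.35 on the log2 scale (SE 0.63, limma adjusted p = 0.121). Cd14 is also a marker of macrophages, whose other markers (5 of 10 listed, mostly Mrc1) summed to 2.70 to 88.6 CPM in knockdown libraries and 8.97 to 151 CPM in NT libraries. The remaining 5, Adgre1, C1qa, C1qb, C1qc and Tyrobp, have no row in the table. Their part in the Cd14 values was not tested.

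Il33 (ENSMUSG00000024810) ran opposite to C3 in the lung sets, being lower after knockdown in each of them, and was mixed in liver. It had 24.5, 10.3 and 1.84 CPM in the lung knockdown libraries, against 232, 318 and 192 CPM in the lung NT libraries. In the liver knockdown libraries it ranged from 2.16 to 151 CPM with a median of 37.9, against 128, 17.9, 16.6, 197 and 16.9 CPM in the liver NT libraries. It was higher after knockdown in G45-2 and 13-2 and lower in the other 3 liver sets. The log2 difference averaged −4.70 ± 1.45 in lung sets (SD, n = 3) and −0.93 ± 2.71 in liver sets (SD, n = 5).

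The lung minus liver difference for Il33 was −3.93 (SE 1.27, limma adjusted p = 0.135), which did not pass. Without the first 42-2 set, where the Il33 difference was −5.35 on the log2 scale, the lung minus liver difference was −4.91 with a limma adjusted p of 0.0213. That fit called 122 of 12697 genes, against 65 of 12931 with all sets. Over single sets left out the lung minus liver difference for Il33 ran from −4.91 to −3.24, with a limma adjusted p of 0.0213 to 0.258. Under code CFa8 the lung sets stood at −3.20 and −6.08 and the liver set at −5.35, so the sites did not separate there. Under code CFa11 the values were −4.81 in lung and 1.41 in liver. Over all sets the knockdown estimate was −2.05 (SE 0.82, limma adjusted p = 0.232). In G45-2 and 6-3 alone it was 0.48, and all 3 lung sets are among those with differing identity transcripts. The epithelial and macrophage marker sums moved with Il33 in the lung sets. Macrophage markers stood at 2.70, 4.87 and 35.8 CPM in lung knockdown libraries and at 151, 86.4 and 56.3 CPM in lung NT libraries, and their part was not tested.

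Il6 (ENSMUSG00000025746) was low throughout, from 0 to 6.29 CPM in knockdown libraries with a median of 1.16, and from 0.0736 to 11.4 CPM in NT libraries with a median of 2.26. It was higher after knockdown in 4 of 8 sets, among them all 3 lung sets, and lower in the other 4. The knockdown estimate was −0.37 (SE 0.35, limma adjusted p = 0.615), and the lung minus liver difference was 1.41 (SE 0.59, adjusted p = 0.220). Levels this low in several libraries lie near the limit of 3 reads.

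Taken one hairpin at a time, none of the 6 tested genes passed, and the limma fit called 0 of 12931 genes (0%) for either hairpin. At an unadjusted p under 0.05 there were 2077 genes for shRNA 1 and 834 for shRNA 2, and edgeR also called 0 for each. The estimate for Cd14 was −2.51 for shRNA 1 (SE 0.72, limma adjusted p = 0.180) and −2.18 for shRNA 2 (SE 0.86, adjusted p = 0.737). For C3 the estimates were −1.32 for shRNA 1 (SE 1.53) and −3.04 for shRNA 2 (SE 1.83). For Lcn2 they were −2.40 and −4.92, and for Lbp −3.35 and −4.35. The 6 tested genes had estimates below 0 for each hairpin. The hairpins were mostly used in different lines, and both fits share NT libraries, so these pairs of values are not independent.

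Between metastatic sites, the NT controls of lung lines had lower average levels than those of liver lines for 5 of the 6 tested genes, with Il33 the exception, and none passed. The comparison takes the line as the replicate, with 2 lung lines and 4 liver lines. It called 4 of 12931 genes (0.0309%), none of them among the 6 tested here. C3 and Il33 had an unadjusted p under 0.05, beside 1692 of all 12931 genes. The edgeR test called none of the 6. It took single libraries rather than line means, so libraries of a line count there as separate replicates. The median log2 difference of these 6 genes was −1.69, beside −0.05 for all genes tested, of which 54.0% were lower in lung.

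C3 had the largest site difference of the 6 tested genes, −6.03 in lung minus liver NT controls (SE 1.16, limma adjusted p = 0.145). Its 3 lung NT libraries all lay below the 5 liver NT libraries. The same held for Lcn2, at −4.55, and Nos2, at −4.18, which had been chosen for such patterns. Among tested genes 7.10% show this order. Within library code CFa8, C3 had 0.810 and 3.09 CPM in the lung NT libraries and 1167 CPM in the liver NT library. Within CFa11 it had 84.8 CPM in the lung NT library and 109, 249 and 2638 CPM in the liver NT libraries, the last of them 13-2, without a named SIRT6 allele. Saa3 differed by −3.21 (SE 1.64, limma adjusted p = 0.447), with both lung lines low and liver lines spread between low and high.

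Il33 was the member with the higher lung level in NT controls, by 2.45 on the log2 scale (SE 0.94, limma adjusted p = 0.339). The lung NT libraries had 192 to 318 CPM and the liver NT libraries 16.6 to 197 CPM, so that 6-3, at 197 CPM, reached into the lung range. Without 6-3, the liver line that reached into the lung range, the difference was 3.20 with a limma adjusted p of 0.0383. That fit called 159 of 12736 genes, against 4 of 12931 with all lines. Over single lines left out the difference ran from 2.04 to 3.20, and 0.0383 was the smallest adjusted p of these fits. In the knockdown libraries the sites were closer: C3 was 2.96 higher in lung than in liver lines (SE 1.27) and Il33 differed by −2.27 (SE 1.33). No gene passed there (0 of 12931 by limma, 0%, with 285 at an unadjusted p under 0.05, and 0 by edgeR on single libraries), and each of the 6 had an adjusted p of 1.00. The line means of C3 in knockdown libraries were 6.13 and 7.78 on the log2(CPM + 1) scale in the lung lines and 1.20 to 5.91 in the liver lines. The 6.13 of lung line 42-3 lay close to the 5.91 of liver line 13-2.

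**Figure D3:**
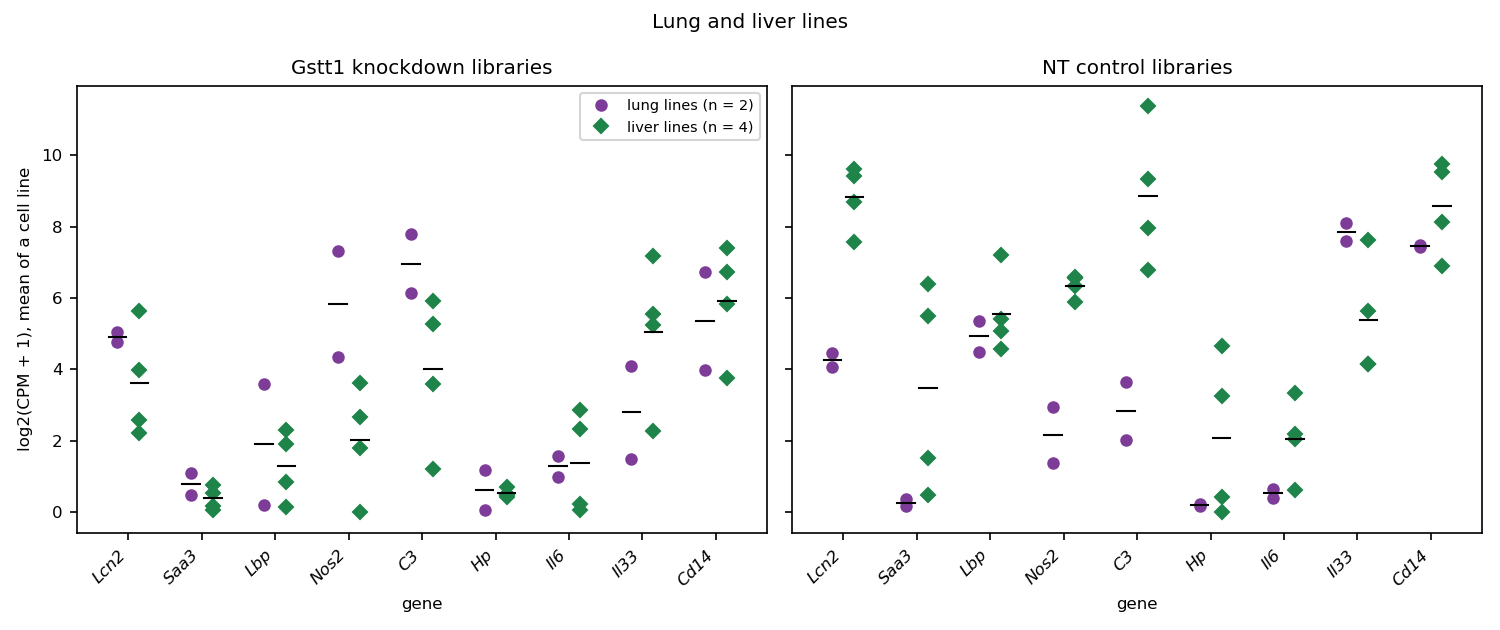
Mean log2(CPM + 1) of each cell line, lung lines (n = 2, circles) left of liver lines (n = 4, diamonds) for each gene, in Gstt1 knockdown libraries (left panel) and NT control libraries (right panel); bars are the mean over lines. In the NT panel the lung lines lie below all liver lines for Lcn2, Saa3, Nos2 and C3, and in the knockdown panel they lie above them for Nos2 and C3. For C3 in the knockdown panel the margin is small, with 6.13 in 42-3 and 5.91 in 13-2. For Saa3 in the NT panel it is small and near the limit of 3 reads, with 0.362 in 42-3 and 0.494 in 6-3. Single NT libraries of Saa3 overlap, with 0.539 CPM in 42-3 second and 0.409 CPM in 6-3.

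Across the 18 libraries the genes varied together in part. Pearson's r of log2(CPM + 1) was above 0 for 30 of 36 pairs, with a median of 0.51. The closest pairs were Saa3 and Hp at 0.89, Lcn2 and C3 at 0.87, and Nos2 and C3 at 0.86. Il33 stood apart, with −0.28 against C3, −0.36 against Nos2 and −0.49 against Il6. Libraries share lines and controls, so these correlations describe the 18 libraries and carry no p.

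Outside the group, the genes most like each member were sought among 10550 genes with a mean of at least 5 CPM; Hp and Il6 fell below that mean and were not compared. Nfkbiz was the nearest gene to C3, with r = 0.91, and was among the 3 nearest to Lcn2 (0.85) and Nos2 (0.82). It encodes IkappaB-zeta, a nuclear cofactor of NF-kB. The chemokine gene Cxcl5 was nearest to Lcn2 (0.89) and Nos2 (0.83) and the second for C3 (0.88). The kinase gene Pim2 was nearest to Saa3 (0.88). Lbp was nearest to Vnn1 (0.90), Cd14 to Ifngr1 (0.91), which encodes an interferon gamma receptor chain, and Il33 to Ociad2 and Rbp4 (both 0.91). All were measured over the same 18 libraries.

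Nfkbiz had 229, 248 and 246 CPM in the lung knockdown libraries, against 43.5, 170 and 107 CPM in the lung NT libraries. In the liver knockdown libraries it ranged from 63.4 to 296 CPM, against 505, 277, 187, 485 and 658 CPM in the liver NT libraries. It was higher in all 3 lung sets and lower in all 5 liver sets, the pattern seen for C3. Its lung minus liver difference was 3.08 on the log2 scale (SE 0.54), given here as a description. Nfkbiz was singled out after its values were seen, as the gene nearest to C3 over these same libraries. Sharing the C3 pattern is therefore no separate result. Its lung sets are those whose identity transcripts differ.

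**Figure D4:**
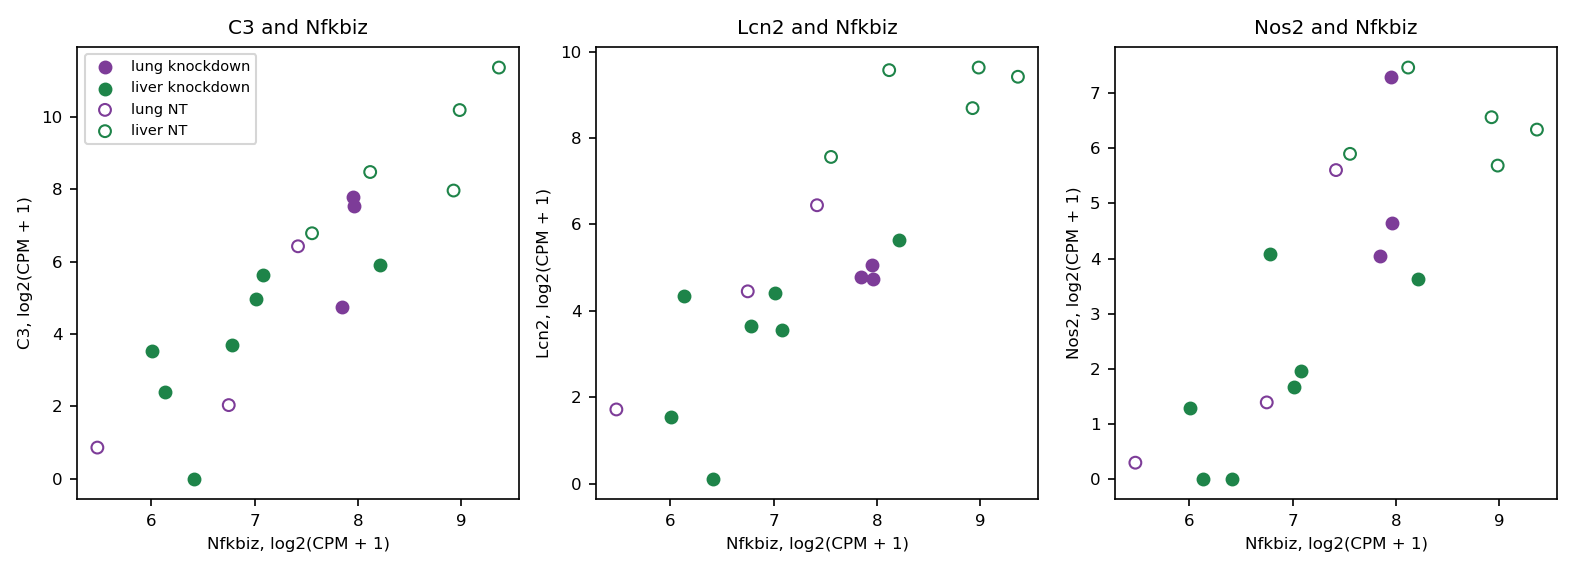
Level of C3, Lcn2 and Nos2 against that of Nfkbiz, both as log2(CPM + 1), in the 18 libraries; filled points are knockdown, open points NT, purple lung and green liver. The liver NT libraries lie at the upper right for all 3 genes, and for C3 (r = 0.91 over 18 libraries) libraries with more Nfkbiz had more C3.

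The wider pathway was read from 8 lists of related genes. None of their genes passed in knockdown versus NT control or in lung versus liver NT controls. In the difference of the knockdown effect between sites Nfkbiz alone passed (limma adjusted p = 0.0405), beside 0.503% of all tested genes. Nfkbiz follows C3 closely over these libraries, so its passing is no separate result. After knockdown, levels were lower for 5 of 6 tested acute-phase genes, 12 of 14 complement genes, 12 of 18 genes of lipopolysaccharide sensing and 14 of 16 NF-kB and inflammatory regulators. They were lower for 10 of 15 genes of interleukin 6 signalling, 9 of 10 of the interleukin 1 family, 9 of 11 of nitric oxide metabolism and 8 of 9 epithelial defence genes. Over all tested genes 53.0% were lower. Markers of tumour epithelium were lower for 7 of 8 genes, with a median log2 difference of −1.35, and macrophage markers for 2 of 2 tested, with a median of −1.21. Their part in these counts was not tested.

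Some of these genes lie close to the members in function. Clu, a complement inhibitor, had 1559 ± 1629 CPM in knockdown libraries and 4248 ± 2672 CPM in NT libraries (SD, n = 10 and 8; log2 difference −2.65, limma adjusted p = 0.146). Socs3, the feedback inhibitor of interleukin 6 signalling, had 63.8 ± 22.03 CPM in knockdown libraries and 172 ± 113 CPM in NT libraries (log2 difference −1.19, limma adjusted p = 0.111). The interleukin 1 receptor antagonist gene Il1rn differed by −2.22 (limma adjusted p = 0.159), and the antimicrobial gene Wfdc2 by −3.11 (adjusted p = 0.109). Asl, which supplies arginine for Nos2, was lower in 8 of 8 sets, as were 2.43% of tested genes (log2 difference −0.74, limma adjusted p = 0.112). These 5 are among the 2 genes of smallest p in their lists, so their low values are no separate result. The fit called none of them. Among the genes of smallest p, the complement protease gene Masp1 (1.58), the kinase gene Map3k7 (0.60) and Ddah1 (1.73), which protects nitric oxide synthases from a natural inhibitor, had log2 differences above 0.

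In lung against liver NT controls, levels were lower in lung for 4 of 6 tested acute-phase genes, 10 of 14 complement genes, 13 of 18 genes of lipopolysaccharide sensing and 13 of 16 NF-kB and inflammatory regulators. They were lower for 12 of 15 genes of interleukin 6 signalling, 5 of 10 of the interleukin 1 family, 7 of 11 of nitric oxide metabolism and 8 of 9 epithelial defence genes, beside 54.0% of all tested genes. Osmr, the oncostatin M receptor gene, had 6.84 ± 6.77 CPM in lung NT libraries and 111 ± 62.9 CPM in liver NT libraries (SD, n = 3 and 5; log2 difference −4.01, limma adjusted p = 0.130). Il1a, which encodes interleukin 1 alpha, had 0.373 ± 0.127 CPM in lung NT libraries and 39.2 ± 39.8 CPM in liver NT libraries (log2 difference −4.59, limma adjusted p = 0.123). Nfkbiz had 107 ± 63.3 CPM in lung NT libraries and 423 ± 189 CPM in liver NT libraries (limma adjusted p = 0.201). For Zc3h12a, an RNase that degrades Il6 mRNA, the site difference was −1.81 (limma adjusted p = 0.173). C3ar1, the receptor for the C3a fragment, was 1.28 higher in lung NT controls (limma adjusted p = 0.301).

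Markers of cells that make these proteins in tissue were partly listed. Hepatocyte markers (4 of 10 listed, mostly Apob) summed to 0.357 to 173 CPM in knockdown libraries and to 0.308 to 664 CPM in NT libraries, highest in 42-2 first NT and 6-3 NT. Neutrophil markers (2 of 8 listed) reached 2.16 CPM in knockdown libraries and 3.05 CPM in NT libraries, and lymphocyte markers (2 of 5 listed) reached 0.119 CPM in knockdown libraries and 0.289 CPM in NT libraries. Endothelial markers (5 of 5 listed) reached 11.4 CPM in knockdown libraries and 1.81 CPM in NT libraries, and lung epithelial markers (3 of 6 listed) 7.63 CPM in knockdown libraries and 3.56 CPM in NT libraries. Their part in the values of the group was not tested.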

How the data were processed

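RNA from 18 libraries of mouse pancreatic cancer metastasis lines was sequenced from TruSeq libraries of total RNA, per the labels' protocols. The authors deposited 1 table of CPM values for 16383 genes; reads were mapped to mm9 per the submitters' processing notes, and no aligner or counter was named in the labels or the file. The columns sum to 99.0 to 99.6% of the CPM scale's full total, and 100% of values are whole multiples of 1 read within 0.01 read, so reads could be recovered. Groups came from the titles, and each culture set pairs knockdown and NT libraries of 1 line; deviations of paired libraries correlated at −0.36 to 0.70 (4 of 10 over 0.1), and the pairing rests on the cell line in the labels. Since the labels do not show that libraries of a line are separate cultures, p-values measure the spread between these libraries, which may be technical.

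Values were analysed as log2(CPM + 1) for 12931 genes with at least 1 CPM in at least 4 libraries (9 of 9 members passed), with limma 3.58.1 in R 4.3.3, two-sided, with Benjamini-Hochberg adjustment over all genes tested and a threshold of 0.05. Fold changes on this scale understate low genes. The site contrasts within NT and within knockdown libraries used means per line in limma and single libraries in edgeR. The lung minus liver difference of the knockdown effect used single libraries with the culture set as a block. edgeR 4.0.16 quasi-likelihood tests on recovered reads, other pseudocounts, filters, scalings and blocks, and leaving out sets or lines were the alternatives. The main limma fit of each comparison was tested on simulated data, and the alternatives were not. In the simulated data the effect of a changed gene did not vary between sets. Members and gene lists were chosen with earlier results of these data known. Named genes outside the group are those of each list past the threshold (up to 4) or else the 2 of smallest p, and the 3 most correlated genes of each member; Nfkbiz was also named after its values were seen. Promoters came from RefSeq for GRCm38.p6, matching 5 of 9 members, and no coordinates were taken from mm9. Cfb was not analysed here.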

Additional observations from a re-analysis of the deposited data

Results flagged for a closer look

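The knockdown effect on C3 differed between the sites. Its log2 difference from the NT control averaged 3.58 ± 2.34 in the lung sets (SD, n = 3) and −5.04 ± 2.11 in the liver sets (SD, n = 5), and the lung minus liver difference in the fit was 8.51 (limma adjusted p = 0.0234). All 3 lung sets were higher and all 5 liver sets lower. These sets come from 2 lung and 4 liver lines, and the fit did not take the line as the replicate. The 3 lung sets, the first 42-2 set and 13-2 are those whose identity transcripts differ between knockdown and NT libraries, and no lung set is left without them, so the difference could not be fitted there. Outliers were sought only in the liver NT (n = 5) and liver shRNA 1 (n = 4) libraries, as 18 groups over the 9 genes. No library there stood far enough from the others of its group to be listed here. Lung libraries and shRNA 2 libraries were not examined for outliers.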

How the results depend on the processing

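The number of the 6 tested genes past the threshold was 0 under every alternative run for knockdown, for each hairpin and for lung versus liver knockdown libraries. For the lung minus liver difference of the knockdown effect it was 1 (C3). It was 0 with no replicate block, 0 without sets 6-3 and 13-2 (chosen after seeing the data) and 0 with edgeR, and 0 to 2 when single sets were left out. It was 0 without 42-3 first, 6-2 or 13-2, and 2 (C3 and Il33) without 42-2 first, where 122 of 12697 genes were called. The C3 difference itself ran between 7.42 and 9.74, with adjusted p between 0.0149 and 0.128. The difference for all genes called 65, with 4 under no replicate block, 0 without 6-3 and 13-2, 13 with edgeR and 23 to 122 when single sets were left out. Knockdown called 5 genes in all, with 0 under edgeR, 84 under no replicate block, 51 with the cell line as the block and 0 to 8 when single sets were left out. Lung versus liver NT controls called 4, with 1 under edgeR on single libraries, 78 for separate libraries with a correlation within line and 0 to 159 when single lines were left out. For lung versus liver NT controls the member count was 0, and 0 to 1 when single lines were left out. Il33 passed without 6-3, where 159 of 12736 genes were called.

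Signs turned in the following cases, with values that did not pass or were not tested. In sets G45-2 and 6-3 only, Il33 was 0.48 for knockdown, 0.30 for shRNA 1 and 0.65 for shRNA 2. For shRNA 1, Il6 was 0.17 after quantile normalization and −0.36 to 0.16 when single sets were left out (0.03 without 42-2 first), and C3 was 0.40 without sets 6-3 and 13-2. The untested Nos2 estimate for shRNA 1, −0.90, was 0.17 without 6-3 and 0.85 without sets 6-3 and 13-2. Between sites in knockdown libraries, Il6 was 0.0421 with a pseudocount of 0.5, and 0.19 with the library code as a covariate, under which Cd14 was 0.41. Leaving out single lines there gave −0.53 to 0.41 for Il6, −1.94 to 0.80 for Cd14 −0.46 to 0.64 for Hp and −1.10 to 2.30 for the untested Lbp, lowest without 42-3. The cause was not tested. In sets G45-2 and 6-3 only, Saa3, Hp and Il6 did not pass the filter on low values. A depth of 8411436 to 25552912 reads leaves Il6, Hp and Saa3 near the limit of 3 reads in many libraries.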
